A study of Homo sapiens with 10 samples.

Results

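The AP-1 family transcription factors examined here are 10 genes, FOS, FOSB, FOSL1, FOSL2, JUN, JUNB, JUND, ATF3, BATF3 and MAFF. They were taken by gene symbol from a table of 61587 gene identifiers, and all 10 reached 200 counts over the samples, as did 19006 genes in total. RPTEC/TERT1 cells, a human proximal tubular epithelial line kept in culture by telomerase expression, were exposed to 10 Gy of gamma radiation or mock-irradiated, and RNA was collected 7 days later by poly-A selection. There were 5 samples in each group, with replicate numbers 1 to 5 in both. The line is a single immortalised culture grown with epidermal growth factor and hydrocortisone, and the cell line label carries a different final number for each sample where the study's methods name RPTEC/TERT1 throughout. The study used irradiation to model senescent tubular epithelium, and separately inferred AP-1 activity in inflammatory proximal tubule cells of injured kidneys. It also mapped JUN binding to DNA in RPTECs treated with TNF, and gave mice an AP-1 inhibitor after ischaemic kidney injury.

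AP-1 is a dimer of basic leucine zipper (bZIP) proteins. A JUN protein pairs with itself, with a FOS protein or with a relative of the ATF, BATF or MAF groups, and the pair binds the TPA response element or the cyclic AMP response element in DNA. FOS, FOSB, JUN and JUNB are classical immediate early genes, whose transcripts appear within minutes of growth factor, cytokine or stress signals and decay quickly. FOSL1 (FRA-1) and FOSL2 (FRA-2) lack the strong activation domain of FOS and last longer in cells. ATF3 is a stress-responsive member, BATF3 lacks an activation domain of its own, and MAFF is a small MAF protein that acts with larger bZIP partners.

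Counts on genes ran from 66269311 to 131555873 per sample. CDKN1A, the p53 target that encodes p21, stood at 66.7 to 207.6 CPM (counts scaled to the TMM-normalised library total) in controls and at 584.4 to 768.4 CPM in irradiated samples. Cell cycle genes (12 tested) had a mean level of 3.93 to 5.34 log2 CPM in controls and 2.88 to 3.42 in irradiated samples, and controls 1 and 3 were the lowest controls. The 12 tubular epithelial markers summed to 2555 to 2900 CPM in controls and 2540 to 3264 CPM in irradiated samples, and 9 of them reached 200 counts, of which 0 rose and 2 fell. The proximal tubule genes among them were uneven in control samples, with ANPEP at 247.8 ± 76.1 CPM, GGT1 at 10.0 ± 2.1 CPM and CUBN at 4.37 ± 0.97 CPM (SD, n = 5), while SLC34A1, LRP2 and HNF4A had 86, 17 and 12 counts over all samples. Markers of other cell types were summed in the same way. The 5 fibroblast markers gave 15.8 to 23.4 CPM in controls and 28.5 to 40.02 CPM in irradiated samples. Both that were tested rose, COL1A1 by 0.78 and DCN by 2.36 on the log2 scale (adjusted p of 0.000108 and 0.000201 in edgeR), and PDGFRA, COL3A1 and LUM had 103, 4 and 2 counts over all samples. The 4 endothelial markers gave 1.29 to 2.40 CPM in controls and 4.15 to 6.07 CPM in irradiated samples. CDH5 rose by 2.48 and PECAM1 by 0.72 (adjusted p of 0.000255 and 0.00519), VWF was at -0.02 (adjusted p = 0.965) and KDR had 2 counts. The 5 leucocyte markers gave 0.386 to 0.771 CPM and 0.381 to 0.713 CPM, with PTPRC, the 1 tested, at 0.27 (adjusted p = 0.283) and CD3E at 3 counts. The part of these shifts in the AP-1 values was not tested, and in bulk RNA a change in the share of cells cannot be told apart from a change in RNA per cell.

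Levels of the family members differed widely. To compare genes, CPM was divided by the length of all annotated exons in kilobases. On this scale FOSL2 was the most abundant in control samples at 94.9 ± 2.5 CPM per kb (SD, n = 5), followed by JUN at 80.7 ± 4.0 and JUND at 65.7 ± 8.9. The ranges of JUN and JUND overlapped, at 75.5 to 85.5 and 55.6 to 78.6 CPM per kb, and FOSL2 lay above both. JUNB (15.7 ± 4.3 CPM per kb) and FOSL1 (12.4 ± 5.7) came next with overlapping ranges, then MAFF (3.65 ± 0.89) and FOS (2.53 ± 0.87), also overlapping. ATF3 (0.396 ± 0.313 CPM per kb) and BATF3 (0.363 ± 0.069) did not differ beyond their spread, and FOSB was lowest at 0.0616 ± 0.0133. In irradiated samples the order was the same except that FOSL1, at 31.4 ± 5.5 CPM per kb (SD, n = 5), passed JUNB at 18.4 ± 1.8. Their ranges no longer overlapped, with FOSL1 at 23.3 to 37.5 and JUNB at 16.5 to 20.2 CPM per kb. Exons of HOOK2 on the other strand cover 14.2% of the exon length of JUNB, and those of PLA2G6 cover 5.81% of that of MAFF. Reads in such overlaps were lost from the counts, so these 2 levels can be too low. The gap between the ranges of JUNB and FOSL1 in irradiated samples can therefore be smaller than shown, or absent.

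**Figure D1:**
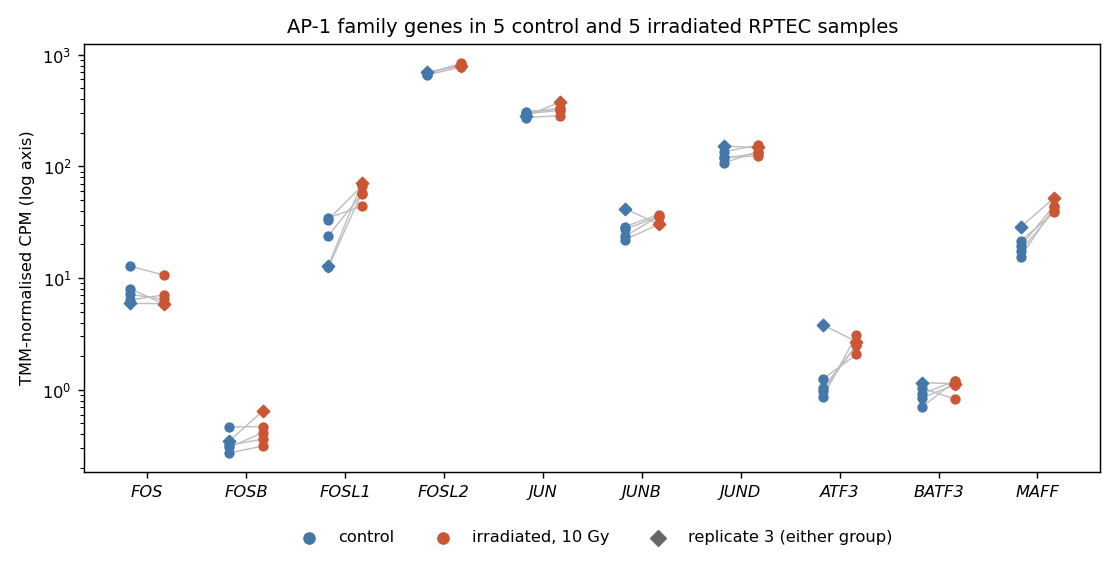
TMM-normalised CPM on a log axis for each of the 10 genes, with 5 control samples (blue), 5 irradiated samples (orange), grey lines joining samples of 1 replicate number, and diamonds for replicate 3. FOSL1, FOSL2 and MAFF separate the groups, while the diamond of control replicate 3 lies above the other controls for ATF3 at 3.81 CPM.

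Promoter sequence is shown for the members that rose and had an entry, MAFF, ATF3 and FOSL2, and for JUN and FOS as the founding members, because cyclic AMP response elements (CRE) and their variants are sites through which ATF, CREB and AP-1 dimers act on these genes. Of the 10 genes, 8 had promoters in RefSeq (GRCh38.p14), and FOSL1 and BATF3 had none in that table. The 250 bases before each annotated start were searched on both strands for the CRE (TGACGTCA), its half-site (TGACGT, which lies within the CRE), the form TGACNTCA that also takes in the CRE, and the TPA response element (TGANTCA). The match is in capitals in each 100-base stretch, written on the strand of the gene. RefSeq starts can differ from the ends of the gene spans given later. The MAFF and FOSL2 stretches lie inside those spans, and the ATF3 stretch ends just inside its own.
MAFF, chr22:38201894-38201993, plus strand: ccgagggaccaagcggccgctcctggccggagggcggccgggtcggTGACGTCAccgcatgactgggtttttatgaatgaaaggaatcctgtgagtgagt
ATF3, chr1:212565238-212565337, plus strand: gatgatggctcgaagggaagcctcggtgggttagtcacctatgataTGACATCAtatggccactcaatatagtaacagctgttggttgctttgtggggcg
FOSL2, chr2:28392746-28392845, plus strand: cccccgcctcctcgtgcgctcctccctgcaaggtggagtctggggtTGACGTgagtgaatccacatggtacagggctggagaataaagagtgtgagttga
JUN, chr1:58784061-58784160, minus strand: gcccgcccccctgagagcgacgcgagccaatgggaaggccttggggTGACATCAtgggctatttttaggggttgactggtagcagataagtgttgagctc
FOS, chr14:75278718-75278817, plus strand: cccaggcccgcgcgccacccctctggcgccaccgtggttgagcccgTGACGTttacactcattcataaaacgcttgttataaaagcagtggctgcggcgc
The CRE of MAFF begins at position -54 from the RefSeq start site, in the first of the 2 MAFF promoters listed. The second MAFF promoter held none of the 4 patterns. The same 8 bases as the CRE of MAFF occur at -200 in JUND, which also holds a separate half-site, read on the other strand, at -87. JUN and ATF3 hold TGACATCA, at -67 and -123, the latter in the first of the 2 ATF3 promoters listed. FOS, FOSB and FOSL2 hold the half-site at -64, -60 and -66, and JUNB had no match to any of the 4 patterns. Among all 35116 promoter windows of this length, 1.65% held the CRE, 7.10% the half-site, 6.87% TGACNTCA and 6.57% TGANTCA, which no member's window held. These matches describe letters in the windows. They were found in members that rose and in members that were not called.

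Irradiated and control samples were compared for every gene with edgeR's quasi-likelihood test, with replicate number as a block and Benjamini-Hochberg adjustment over all genes. Of the 10 members, 4 rose at an adjusted p-value under 0.05 (FOSL1, MAFF, ATF3 and FOSL2) and 0 fell, where 23.9% of all genes tested rose and 22.7% fell, 46.6% in either direction. Increases made up 51.4% of all calls, and 38.0% when counts were scaled by library size alone. The median log2 fold change of the members was 0.26, and that of all genes was -0.01. FOSL1 and MAFF more than doubled, ATF3 nearly doubled in the fit, and FOSL2, the most abundant member, rose by a small and even amount. Groups did not overlap for 3 members, FOSL1, FOSL2 and MAFF, each with all irradiated samples above all controls, which held for 14.6% of all genes. The irradiated sample was higher in all 5 pairs for 5 members (these 3, FOSB and JUN), as for 26.4% of all genes.

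FOSL1 (GRCh38, chr11:65892049-65900573, minus strand) encodes FRA-1, a FOS-type partner of JUN that growth factor signalling through ERK is known to induce and stabilise. It stood at 12.5, 34.6, 12.9, 33.45 and 23.9 CPM in controls 1 to 5, and at 58.3, 43.9, 70.8, 66.6 and 56.8 CPM in irradiated samples 1 to 5. Every irradiated sample was above every control, and controls 1 and 3 had well under the level of the other controls. The log2 fold change was 1.44 (SE 0.30, adjusted p = 0.00562 in edgeR), which ranks at percentile 96.9 of all genes. Within pairs the increase ran from 0.34 in pair 2 to 2.46 in pair 3 on the log2 scale. Controls 1 and 3 were also the controls with the lowest cell cycle gene level, at 4.01 and 3.93 log2 CPM against 5.27 to 5.34 in the other controls. Without both pairs of replicates 1 and 3 the log2 fold change was 0.85 (adjusted p = 0.00507). In that fit 6 members rose and FOS fell, against 23.0% and 24.1% of the genes tested. The part of the cell cycle state of the controls in this value was not tested.

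MAFF (chr22:38200767-38216507, plus strand) encodes a small MAF protein, which lacks an activation domain and is inducible by stress and cytokines. Its level was 15.5, 21.4, 28.6, 19.3 and 17.6 CPM in controls 1 to 5 and 43.0, 38.9, 52.4, 44.65 and 40.1 CPM in irradiated samples 1 to 5. The lowest irradiated sample lay above the highest control, control 3. The log2 fold change of 1.12 (SE 0.09, adjusted p = 8.91e-05 in edgeR) was the most even of the larger changes, with 0.86 to 1.47 within pairs. It ranged from 1.03 to 1.19 over the 13 alternative settings, each with an adjusted p of at most 0.00124.

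ATF3 (chr1:212565334-212620777, plus strand) encodes an ATF/CREB-type bZIP protein that p53 and the integrated stress response are known to induce. Its level was 1.25, 1.03, 3.81, 0.854 and 0.974 CPM in controls 1 to 5, and 2.07, 2.49, 2.7, 3.09 and 2.52 CPM in irradiated samples 1 to 5. Control 3 exceeded every irradiated sample, and the other 4 controls lay below all of them. The log2 fold change was 0.93 (SE 0.31, adjusted p = 0.043 in edgeR). The call was lost without the replicate block (0.71, adjusted p = 0.163), in limma-voom (0.83, adjusted p = 0.0674), with library size as the only scaling (0.85, adjusted p = 0.056) and without replicate 1, 2, 4 or 5 (adjusted p of 0.091, 0.104, 0.129 and 0.13). Without replicate 3 the value was 1.32 with an adjusted p of 0.00125. CDKN1A, KLF6 and GADD45B were also highest among the controls in control 3, at 207.6, 128.3 and 63.9 CPM.

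FOSL2 (chr2:28392448-28417317, plus strand) encodes FRA-2. Its level was 692.3, 657.3, 701.5, 675.9 and 670.0 CPM in controls and 812.6, 773.9, 788.0, 835.2 and 832.9 CPM in irradiated samples. The groups were narrow and stood apart, with a coefficient of variation of 2.60% in controls and 3.35% in irradiated samples, where the medians over all genes were 13.8% and 10.9%. The log2 fold change was 0.25 (SE 0.05, adjusted p = 0.00414 in edgeR), with 0.17 to 0.31 within pairs. This was a smaller fold than those of FOSL1 or MAFF, but the gene's high level made its gain per kb close to that of FOSL1. FOSL2 went from 94.9 ± 2.5 to 112.9 ± 3.8 CPM per kb (SD, n = 5 each) and FOSL1 from 12.4 ± 5.7 to 31.4 ± 5.5. Each other member gained less on this scale. Without division by length FOSL2 gained more, from 679.4 ± 17.7 to 808.5 ± 27.1 CPM against 23.5 ± 10.7 to 59.3 ± 10.3 CPM for FOSL1.

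**Figure D2:**
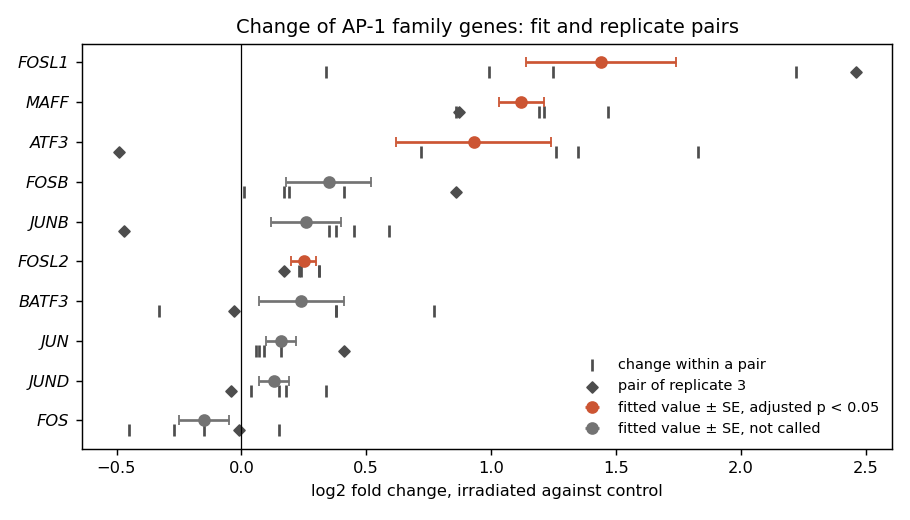
Fitted log2 fold change ± SE of each gene (circles, orange where the adjusted p-value was under 0.05) with the change within each of the 5 replicate pairs beneath it (ticks, with a diamond for pair 3). Pair 3 is the highest for FOSL1 at 2.46 and the lowest for ATF3 at -0.49 and JUNB at -0.47.

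The immediate early members FOS and FOSB were not called. FOS, the partner of JUN in the classical dimer, stood at 6.37, 12.8, 5.93, 8.02 and 7.15 CPM in controls and at 7.06, 10.6, 5.91, 5.85 and 6.43 CPM in irradiated samples. The groups overlapped fully, and both samples of replicate 2 were the highest of their groups. Its log2 fold change was -0.15 (SE 0.10, adjusted p = 0.249 in edgeR), with the irradiated sample higher in 1 of 5 pairs. FOSB, a close relative of FOS, had 21 to 60 counts per sample, or 0.272 to 0.464 CPM in controls and 0.314 to 0.648 CPM in irradiated samples. Its value of 0.35 (SE 0.17, adjusted p = 0.131) therefore rests on few reads, although all 5 pairs were higher.

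The JUN genes, which supply an obligate partner in most AP-1 dimers, were also not called with all samples included. JUN stood at 309.8, 273.6, 282.4, 299.2 and 297.6 CPM in controls and at 326.2, 285.2, 375.1, 333.7 and 316.2 CPM in irradiated samples. The irradiated sample was higher in all 5 pairs, and the groups overlapped through irradiated replicate 2. Its log2 fold change was 0.16 (SE 0.06, adjusted p = 0.0675 in edgeR, with 0.0563 to 0.30 over the alternatives). JUND, the member of the family that is expressed most steadily in many cells, had 107.3 to 151.7 CPM in controls and 124.0 to 154.1 CPM in irradiated samples, with a log2 fold change of 0.13 (SE 0.06, adjusted p = 0.0946).

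JUNB, which can oppose JUN at some promoters, stood at 22.1, 27.4, 41.95, 28.95 and 23.7 CPM in controls and at 30.2, 35.6, 30.35, 36.9 and 35.6 CPM in irradiated samples. Control 3 was the highest of the 10 samples, and the other controls lay below every irradiated sample. The log2 fold change was 0.26 (SE 0.14, adjusted p = 0.164 in edgeR), and 0.45 (SE 0.05, adjusted p = 0.000739) without replicate 3. JUND passed the threshold in that fit as well, at 0.18 (adjusted p = 0.0331). Without replicate 3, 6 of the 10 members rose, against 25.1% of 18345 genes tested. BATF3, which pairs with JUN proteins, had 0.696 to 1.16 CPM in controls and 0.821 to 1.20 CPM in irradiated samples, with a log2 fold change of 0.24 (SE 0.17, adjusted p = 0.275) and a rise in 3 of 5 pairs.

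**Figure D3:**
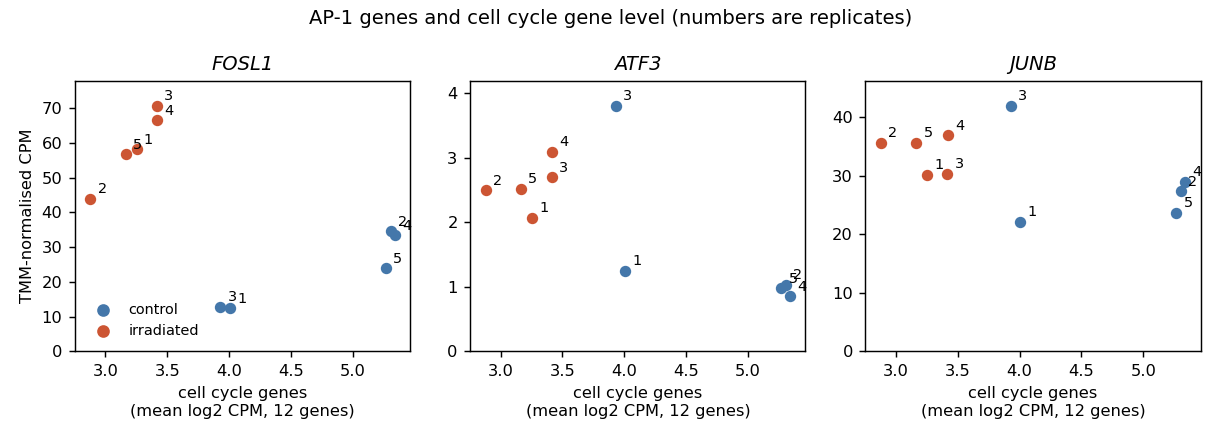
TMM-normalised CPM of FOSL1, ATF3 and JUNB against the mean log2 CPM of 12 cell cycle genes in the 5 control (blue) and 5 irradiated (orange) samples, numbered by replicate. Controls 1 and 3 share a low cell cycle level and a FOSL1 level of 12.5 and 12.9 CPM, but control 3 alone of the controls has high ATF3 and JUNB, at 3.81 and 41.95 CPM.

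Changes in single members altered the make-up of the FOS family and left that of the JUN family close to where it was. On the CPM per kb scale FOSL1 held 11.2 ± 4.7% of the summed FOS family in controls (6.27% to 16.1%) and 21.3 ± 2.9% in irradiated samples (17.3% to 25.1%, SD, n = 5 each). FOSL2 held 86.5 ± 5.3% and 77.1 ± 2.5%, FOS 2.28 ± 0.71% and 1.56 ± 0.53%, and FOSB 0.0560 ± 0.0110% and 0.0539 ± 0.0145%. FRA-type transcripts thus made up nearly the whole family in every sample. The summed level was 109.9 ± 4.3 CPM per kb in controls and 146.6 ± 7.2 in irradiated samples. Within the JUN family, JUN held 50.0 ± 4.6% and 50.0 ± 3.5%, JUND 40.4 ± 3.3% and 39.8 ± 2.9%, and JUNB 9.63 ± 2.03% and 10.2 ± 1.2%. These shares are descriptions and were not tested, and they depend on the annotated lengths. Without division by length the share of FOSL1 rose by 3.45 percentage points instead of 10.2.

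**Figure D4:**
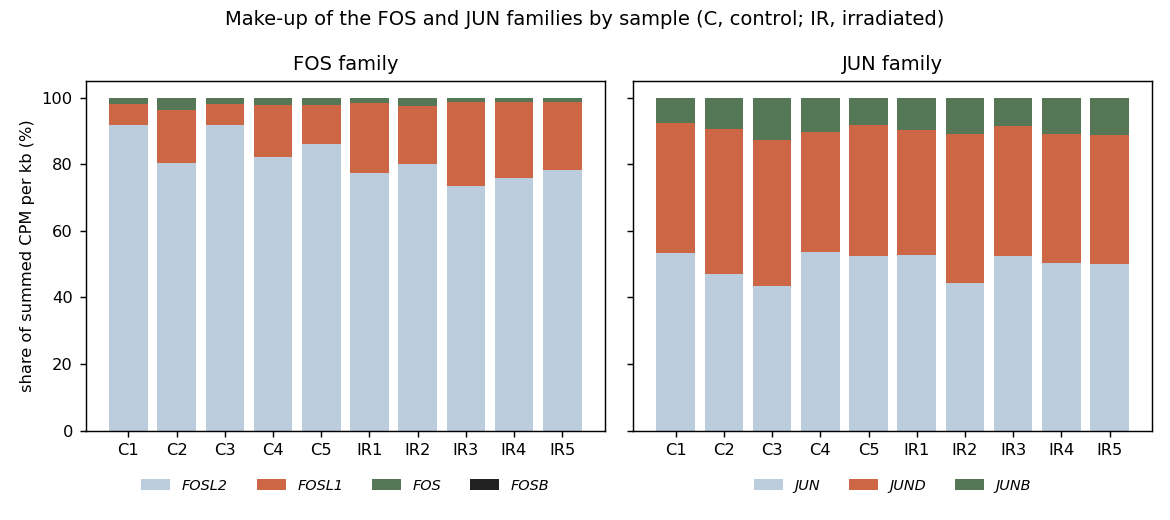
Stacked bars of each gene's share of the summed CPM per kb of the FOS family (left) and the JUN family (right) in control samples C1 to C5 and irradiated samples IR1 to IR5. The FOSL1 segment is 6.27% to 16.1% in controls and 17.3% to 25.1% in irradiated samples, while JUN, JUND and JUNB keep similar shares.

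The pathway around AP-1 was described with gene lists, read against the same background of 23.9% of genes that rose and 22.7% that fell. Among 12 other bZIP partners tested, 4 rose and 2 fell, with a median log2 fold change of -0.02. CREB5, a partner of JUN, stood at 34.2 ± 4.5 CPM in controls and 74.4 ± 8.7 CPM in irradiated samples (SD, n = 5 each) and rose by 1.13 on the log2 scale (SE 0.07, adjusted p = 3.99e-05 in edgeR). BATF2 (0.31), NRL (-0.32) and ATF2 (-0.20), the JUN partner that JNK and p38 phosphorylate, passed the threshold narrowly, with adjusted p-values of 0.0393, 0.0434 and 0.0312. BATF2 kept the call in 3 of 13 alternative settings and NRL in 5. Both lost it without the replicate block (adjusted p of 0.157 and 0.0546), among other settings. ATF2 kept it in 10 and lost it without replicate 1, 4 or 5 (0.0622, 0.0823 and 0.0781). The genes of other small MAF proteins moved less than MAFF, with MAFG at 0.02 (adjusted p = 0.712) and MAFK at 0.19 (adjusted p = 0.0213). A difference between MAFF and these genes was not tested.

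Upstream, 13 of 25 genes of MAP kinases, their activating kinases and JUN-degrading ubiquitin ligases rose and 4 fell, with a median log2 fold change of 0.16. MAPK13, which encodes p38 delta, rose from 30.0 ± 3.0 to 58.6 ± 5.7 CPM (log2 fold change 0.96, adjusted p = 5e-05 in edgeR), and MAP2K3, an activator of p38, rose by 0.77 (adjusted p = 0.00221). MAP2K6, another p38 activator, fell by 1.28 (adjusted p = 0.000346) and MAP3K4 fell by 0.71 (adjusted p = 0.000325). MAPK8, which encodes the JUN kinase JNK1, had a log2 fold change of 0.42 (adjusted p = 0.000362 in edgeR). The genes of the other JUN kinases were not called, with MAPK9 at -0.05 (adjusted p = 0.399) and MAPK10 at -0.14 (adjusted p = 0.096). The values of MAPK8, MAPK9 and MAPK10 were picked out after they were seen, as were those of MAFG and MAFK. Phosphorylation, which controls the activity of JUN proteins, is not measured by these counts.

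Of 10 dual-specificity phosphatases tested, which dephosphorylate MAP kinases and are themselves induced by the same signals, 7 rose and 1 fell, with a median log2 fold change of 0.78. DUSP10, which acts on JNK and p38, stood at 6.04 to 8.70 CPM in controls and 29.7 to 51.5 CPM in irradiated samples, a rise of 2.46 on the log2 scale (SE 0.14, adjusted p = 2.83e-05 in edgeR). DUSP6, which acts on ERK, had 27.4 ± 9.0 CPM in controls and 85.0 ± 10.1 CPM in irradiated samples and rose by 1.68 (SE 0.22, adjusted p = 0.000729). DUSP9 fell from 0.745 ± 0.131 to 0.195 ± 0.036 CPM (-1.94, adjusted p = 0.000133).

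More of the immediate early genes outside AP-1 rose than fell, as among the members. Of 21 tested, 10 rose and 2 fell, with a median log2 fold change of 0.27. BTG2, an antiproliferative p53 target, rose by 1.73 (adjusted p = 0.000186 in edgeR) and the zinc finger factor KLF6 by 1.45 (adjusted p = 2.9e-05). GADD45B fell from 36.7 ± 15.5 to 20.5 ± 1.4 CPM (-0.76, adjusted p = 0.00851), with control 3 at 63.9 CPM. EGR1, induced like FOS by serum response factor, had a log2 fold change of -0.23 (adjusted p = 0.0437), a call that was lost without the replicate block (adjusted p = 0.666) and without replicate 2, 3, 4 or 5.

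Textbook AP-1 targets were mostly higher. All 14 tested rose in this fit (12 with no replicate block and without replicate 1 or 3, 13 with library size only), with a median log2 fold change of 1.48 and a range of 0.25 to 3.78, while MMP3, MMP9, MMP10 and MMP13 stayed under 200 counts. The chemokine gene CXCL8 had the largest change (3.78, adjusted p = 0.000271 in edgeR) and IL6 the next (3.21, adjusted p = 2.11e-05), with 5.54 ± 1.77 CPM in controls and 50.95 ± 15.24 CPM in irradiated samples (SD, n = 5). These genes also answer to NF-κB and other factors, and the list was written with the changes of some members known, so its count is not independent evidence of a direction. Of 7 genes that the study links to AP-1, 5 rose. HDAC9 had a log2 fold change of 3.45 (adjusted p = 8.62e-06), VCAM1 of 2.98 (adjusted p = 7.52e-05), CDKN1A of 2.92 (adjusted p = 9.11e-05), the injury marker HAVCR1 of 1.78 (adjusted p = 4.93e-05) and ICAM1 of 1.23 (adjusted p = 0.00102). VCAM1 stayed at a low level, at 0.283 ± 0.079 CPM in controls and 2.30 ± 0.62 CPM in irradiated samples (SD, n = 5 each). DCDC2 (-0.07, adjusted p = 0.335 in edgeR) and PDGFA (0.19, adjusted p = 0.138) were not called.

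Integrated stress response genes, which include ATF3's upstream factor ATF4, did not move as 1 group. Of 11 tested, 3 rose and 2 fell, with a median log2 fold change of -0.06. ATF5 rose by 1.51 (adjusted p = 0.000534 in edgeR) and TRIB3 by 0.73 (adjusted p = 0.000224), while DDIT4 fell by 0.83 (adjusted p = 0.00168) and DDIT3 by 0.40 (adjusted p = 0.0306), a call lost without replicate 1, 3, 4 or 5. ATF4 itself, picked out after its value was seen, had a log2 fold change of -0.06 (adjusted p = 0.498). Of the 12 cell cycle genes, 11 fell, with MKI67 at -2.57 (adjusted p = 0.00141) and AURKB at -2.13 (adjusted p = 0.00177).

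**Figure D5:**
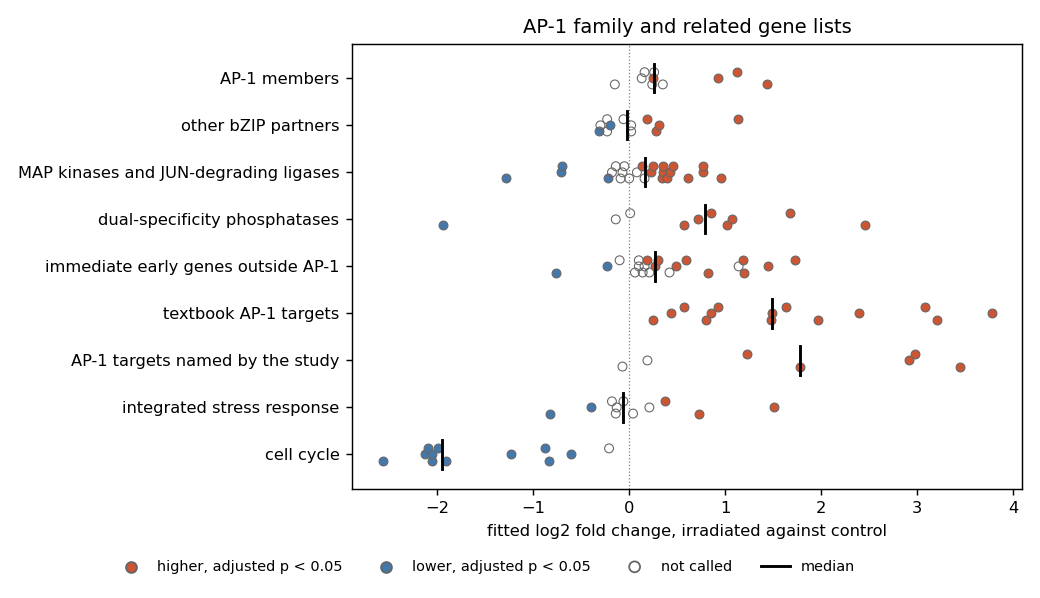
Fitted log2 fold change of every tested gene of the AP-1 family and 8 related lists, filled orange where higher and blue where lower at an adjusted p-value under 0.05, with a black bar at each list's median. The AP-1 members have a median of 0.26, the dual-specificity phosphatases 0.78 and the textbook targets 1.48.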

How the data were processed

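Bulk poly-A RNA-seq of 5 irradiated and 5 mock-irradiated RPTEC/TERT1 samples was used. Per the study's methods, the authors trimmed adapters with Trim-Galore, and STAR gave both the GRCh38 alignment and the gene counts. The deposited table holds these raw counts. The labels name a TruSeq kit and the methods a NEBNext kit. The strand setting is not given in the sources used here. All 17 protein-coding genes lying wholly under exons of the other strand had 0 counts, against 10.7% of genes without such overlap, so counting was treated as unstranded. The annotation release is not given in the sources used here. Symbols were found for 61369 of 61587 identifiers, and coordinates and lengths came from GENCODE annotation of GRCh38.

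Genes with at least 200 counts were kept (the study's filter). Counts were normalised by TMM and tested with glmQLFit and glmQLFTest in edgeR 4.0.16 (R 4.3.3), replicate number as a block as in the study's model, threshold 0.05. SE is the log2 fold change over the square root of F. Same-numbered samples were taken as pairs, and the labels give the 2 samples of each pair a shared B number. Their deviations from group means correlated at 0.217 to 0.508 across genes. Differently numbered samples gave -0.354 to 0.317, with controls 5 and 4 against irradiated 4 and 5 (0.317 and 0.295) above the lowest same-numbered value. Nothing says that replicates are separate cultures, so p-values measure the spread of the changes within these replicate pairs. No 2 replicates agreed within sampling noise (chi-square per gene of at least 8.5). Replicates 4 and 5 lay closest in both groups, at 15.1 in controls and 8.5 in irradiated samples. Other pairs of replicates gave 57.1 to 213 in controls and 40.4 to 88.5 in irradiated samples. Whether replicates 4 and 5 are less independent than the others was not tested. Named genes are the 10 members, the 7 targets linked to AP-1 by the study and, in each other list, the 2 largest rises and 2 largest falls past the threshold, with the 3 genes varying most like a discussed member. Other names are marked as chosen after their values were seen. Alternatives were DESeq2 1.42.0, limma-voom (limma 3.58.1), other scalings, filters, no block and each replicate left out. Leaving out both pairs of replicates 1 and 3 was added after the data were seen. Members and lists were chosen with earlier results of these data known. The tests were also run on simulated counts. Few genes changed there, unlike in these data, so that run does not vouch for the calls. Figures used matplotlib 3.10.9.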

Additional observations from a re-analysis of the deposited data

Results flagged for a closer look

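A sample was picked out where its gap to the nearest of its group exceeded Dixon's criterion for 5 values. Of 94 sets of 5 values, 13 met the criterion, and chance alone gives about 1 in 20 (4.7). Many of them share a sample. Among the members, ATF3 stood at 3.81 CPM in control replicate 3 (other controls 0.854 to 1.25), FOS at 10.6 CPM in irradiated replicate 2 (others 5.85 to 7.06) and BATF3 at 0.821 CPM in the same sample (others 1.11 to 1.20). The FOS share of the FOS family was 3.51% in control replicate 2 (others 1.74% to 2.20%) and 2.47% in irradiated replicate 2 (others 1.19% to 1.51%), and the JUND share of the JUN family was 44.9% in irradiated replicate 2 (others 37.6% to 39.0%).

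Of the related genes, control replicate 3 was high for CDKN1A at 207.6 CPM (others 66.7 to 80.9), KLF6 at 128.3 CPM (others 73.6 to 85.9) and GADD45B at 63.9 CPM (others 26.5 to 34.0), and control replicate 2 was low for DDIT4 at 119.0 CPM (others 178.1 to 200.7). Irradiated replicate 2, the sample with the fewest counts (66269311), was low for DCDC2 at 505.2 CPM (others 570.0 to 590.5) and high for DDIT3 at 4.75 CPM (others 3.55 to 3.87). Irradiated replicate 3 was high for MAPK13 at 68.4 CPM (others 54.0 to 57.8).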

How the results depend on the processing

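The calls of FOSL1, FOSL2 and MAFF held in all 13 alternatives, with log2 fold changes of 0.85 to 1.73, 0.17 to 0.28 and 1.03 to 1.19. ATF3 was not called with library size only (0.85), in limma-voom (0.83) or with no replicate block (0.71), and ran from 0.70 to 1.32 with replicates left out in turn. JUNB ran from 0.19 to 0.45 and JUND from 0.08 to 0.18 in those fits. Without both pairs of replicates 1 and 3, FOS (-0.31, adjusted p = 0.02) was called lower, the 1 member so called, and JUNB (0.42) and JUND (0.21) were called higher. The members called higher numbered 3 to 6. With library size only, 38.0% of called genes rose against 51.4%, and the median of all genes was -0.086 against -0.010.

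Among lists, other bZIP partners gave 2 higher genes with library size only, with a minimum of 1 count and with no replicate block (2 to 4 with replicates left out), and 1 lower gene in DESeq2 and with no block (0 to 2). The kinase list gave 9 lower genes with library size only. Immediate early genes gave 1 lower gene with no replicate block (1 to 2 with replicates left out) and the stress response list 1 to 2. The share differences without division by length were -0.307 percentage points for FOS, 0.00232 for FOSB and 0.0528 for JUN, the last 2 of opposite sign to -0.00208 and -0.00292. With replicates left out they ran from -0.00740 to 0.00191 for FOSB, from -2.30 to 0.797 for JUN and from -1.37 to 0.452 for JUND. The cause was not tested. Without the block 7006 genes were called, against 8857, and no member other than ATF3 changed its call. FOSB, BATF3 and ATF3 had the fewest counts of the members, at 383, 999 and 1965 over all samples.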

Other observations

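For each member, the genes that varied most like it within groups were sought among all 19006 genes, by Pearson's r of deviations of log2 CPM from the group means over 10 samples. These values describe samples that share library and depth, and the highest of so many are high by construction. FOSL1 lay closest to HROB (0.985), PRELID1 (0.981) and CCDC86 (0.979), FOSL2 to ITGAV (0.943), TUT7 (0.941) and KIAA0232 (0.927), and FOS to DDX11 (0.988), HAUS5 (0.964) and DDX55 (0.957). ATF3 lay closest to CDKN1A (0.98), PXDC1 (0.978) and PIM3 (0.977), which without replicate 3 came to 0.789, 0.757 and 0.798 over 8 samples. MAFF lay closest to COL14A1 (0.98), ITPRIP (0.978) and MXD1 (0.974), with 0.951, 0.946 and 0.909 without replicate 3.

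Between members, values ran from -0.754 (FOS and FOSL2, -0.894 without replicate 3) to 0.80 (FOSB and JUN, 0.653 without it). Several moved widely with replicate 3. JUNB and ATF3 went from 0.776 to -0.0616 and ATF3 and MAFF from 0.699 to -0.296 without it, while FOSL1 and MAFF went from 0.0587 to 0.932 and FOSL2 and JUN from 0.207 to 0.899.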
